A study of Mus musculus with 18 samples.

Results

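Polyadenylated RNA of mouse fibroblasts was compared between 24 hours and 6 hours after doxycycline switched on the histone variant macroH2A2. The comparison holds 3 libraries titled 24h and 3 titled 6h, which are 6 of the 18 samples of the series, and 3 libraries titled 0h give reference values. Per the labels, all 9 libraries came from neonatal dermal fibroblasts of male 129/S6 mice that had been immortalized with SV40 (iDFs) and were at passages 20-30. All of them, the 0h libraries included, lacked both macroH2A genes (macroH2A1/2 double knockout) and carried an inducible macroH2A2-GFP transgene. Cells at 0h were untreated, and cells at 6h and 24h had received 0.5 ug/ml doxycycline. The labels give neither the promoter of the transgene nor whether the line is 1 clone. They speak of biological triplicates in 1 cell line without naming separate cultures, so the p-values measure the spread between these libraries. Uninduced cells kept for 6 or 24 hours were not analysed here, so doxycycline, time in culture and the variant itself cannot be told apart.

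MacroH2A is a variant of histone H2A that carries a large globular macro domain, and it is found over silent chromatin such as the inactive X chromosome and domains marked by Polycomb. Native ChIP-seq of the same line belongs to the series and follows where the new variant sits over time, while the RNA libraries follow expression. Dermal fibroblasts make and remodel the collagen-rich matrix of the skin, contract through smooth muscle type actins, and answer to growth factors with waves of transient genes.

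Each library held between 29338093 and 37793178 reads counted in genes. A gene was called when the adjusted p of edgeR's quasi-likelihood test was under 0.05, and values are CPM, the counts scaled to a common library size and normalised between libraries. The fibroblast label was read against 23 markers, of which 17 were expressed enough to be tested, among them Col1a1, Col1a2, Vim and Thy1. Tcf21 was at 0 in all 9 libraries, and Lum did not exceed 0.0988 CPM in any. Fap, Pi16, Dpp4 and Cd34 were too low to be tested as well, and Dcn, though tested, lay between 1.09 and 2.32 CPM. Of 55 markers of keratinocytes, endothelial and mural cells, immune cells, melanocytes, Schwann cells, fat and muscle, 20 were tested, and Krt5, Tie1, Adgre1, Tyr, Sox10 and Myod1 were among those at 0 in all 9 libraries. The summed level of the 4 tested keratinocyte markers was 277 to 289 CPM at 6h and 236 to 238 at 24h. Most of it came from the integrin gene Itga6, which fibroblasts express too. Itga6 (log2 -0.32) and Epcam (-0.51) were called lower at 24h, while Dsp was called higher (log2 0.45, adjusted p = 2.7e-06). The 5 tested endothelial and mural markers summed to 251 to 259 CPM at 6h and 221 to 233 at 24h, most of it from Cspg4 and Mcam. Flt1 (log2 -0.33, adjusted p = 8.4e-06) and Cspg4 (-0.17, 1.2e-04) were called lower at 24h, and none of the 5 was called higher. Pecam1, Cdh5, Tek, Vwf and Emcn were too low to be tested. Macrophage and immune markers summed to 3.79 to 4.14 CPM at 6h and 3.62 to 4.49 at 24h, and melanocyte and Schwann markers to 4.89 to 5.90 and 4.84 to 5.33. Markers of fat and muscle summed to 113 to 119 CPM and 108 to 114, most of it from Lpl, while Adipoq and Plin1 were too low to be tested.

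The gene of the induced variant is described first, although its change was not the largest. H2afy2, which encodes macroH2A2 (chr10:61738640-61784604 in GRCm38), stood at 823, 833 and 805 CPM in the 6h libraries and at 1741, 1713 and 1727 CPM in the 24h libraries. The level therefore went on rising after 6 hours, with no overlap between the groups, by a log2 change of 1.07 ± 0.097 (SE, n = 3 per group, adjusted p = 7.2e-10). The 0h libraries held 10.5, 25.3 and 9.61 CPM, so replicate 2 at 0h was above the others. In these knockout cells with a macroH2A2-GFP transgene, counts at this gene do not separate transgene RNA from RNA of the native locus. H2afy, which encodes macroH2A1, was counted at 56.0, 58.2 and 56.6 CPM at 6h and 51.5, 58.9 and 60.6 CPM at 24h in cells labelled as knockout for it. These counts cover the whole gene, so they do not check the deleted part. Among the other H2A variants, H2afz, which encodes H2A.Z, was at 217, 214 and 230.5 CPM at 6h and 239.5, 236 and 240.2 CPM at 24h, a small rise (log2 0.11 ± 0.027, adjusted p = 0.0017) that was not seen at 6h against 0h (log2 0.027 ± 0.028, adjusted p = 0.47). H2afv, the second H2A.Z gene, rose by a log2 of 0.44 ± 0.038 from 41.6 to 56.3 CPM, close to its 0h mean of 53.4. H2afx (log2 -0.081 ± 0.033, adjusted p = 0.051) and H2afj (log2 0.10 ± 0.046, adjusted p = 0.089) did not pass the test. H2afx did pass in 4 of 16 other settings and H2afj in 2, so neither outcome is settled.

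Between 6h and 24h, 4980 of 13785 tested genes were called (36.1% of those tested), 2395 of them higher at 24h (17.4%) and 2585 lower (18.8%). Most of these changes were small: the median size among called genes was a log2 of 0.197, and 420 genes (3.05%) moved by 1.5-fold or more. For comparison, 39.0% of tested genes were called at 6h against 0h (20.8% higher and 18.2% lower) and 7.04% at 24h against 0h (4.17% higher and 2.87% lower). In bulk RNA, fewer cells that express a gene and less of its RNA per cell cannot be told apart.

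Each called gene was then placed by its 0h level. The 3 contrasts share libraries, so the classes describe where the 24h level lay and give no separate evidence for a change. The largest class, 3536 genes (25.7% of tested genes and 71.0% of those called), had been called at 6h against 0h, moved the opposite way by 24h, and was not called at 24h against 0h. Missing the threshold against 0h does not show that such a gene was back at its 0h level. Another 182 genes (1.32%) moved the opposite way but were still called on the 6h side of 0h, and 66 (0.479%) went further in the direction of their 6h change. Genes that moved only between 6h and 24h, called then and at 24h against 0h but not at 6h against 0h, numbered 207 (1.5%), 132 upward and 75 downward. Genes that passed beyond their 0h level, called at 6h and on the other side of 0h at 24h, numbered 82 (0.595%), 26 upward and 56 downward. The last 907 (6.58%) were called for 24h against 6h alone.

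**Figure D1:**
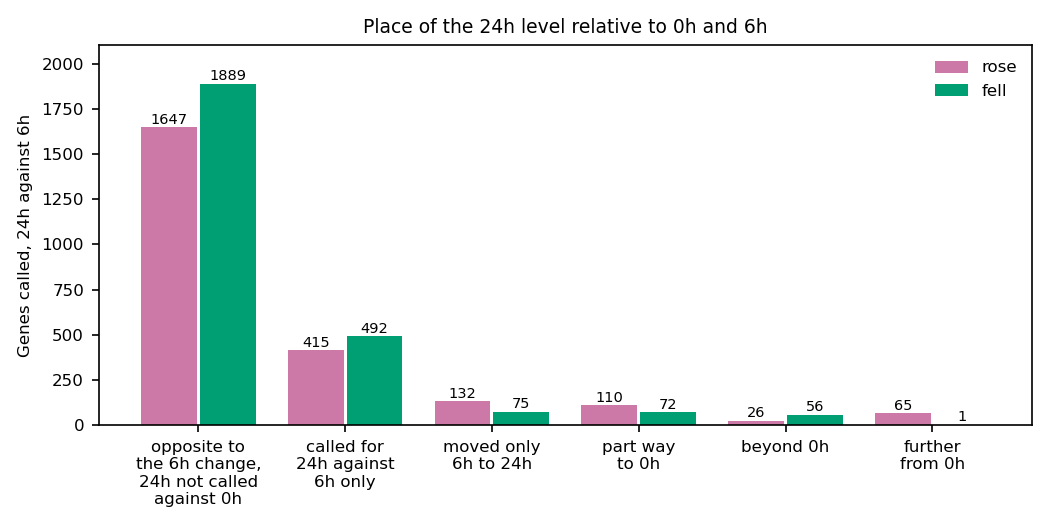
Number of genes called at 24h against 6h (vertical axis, genes) in each class of 24h level relative to 0h and 6h (horizontal axis), with genes that rose and genes that fell as separate bars. The class that moved opposite to its 6h change and was not called against 0h holds 1647 rising and 1889 falling genes, while the classes beyond 0h, further from 0h and moved only after 6h hold between 1 and 132 genes in each direction.

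Sizes of the smaller classes rested on single libraries. Without replicate 2 at 0h the class that moved only after 6h held 118 genes, and without replicate 3 at 24h it held 125. The class beyond 0h held 45 genes without replicate 1 at 0h, 33 without replicate 2 at 0h and 43 without replicate 2 at 24h.

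Ranking took protein-coding genes that averaged at least 1 CPM over the 6 libraries and whose groups did not overlap. The largest decrease was that of Serpinb2, which encodes the plasminogen activator inhibitor PAI-2 (chr1:107500892-107525600). Its level was 41.0, 37.3 and 36.8 CPM at 6h and 4.89, 4.09 and 4.04 CPM at 24h, a log2 change of -3.14 ± 0.086 (SE, adjusted p = 3.3e-21), and the 24h libraries lay among the 0h libraries (3.31, 5.06 and 3.96 CPM). Postn, which encodes the matrix protein periostin (chr3:54359267-54391041), went from 27.0, 28.6 and 28.9 CPM to 8.28, 9.16 and 9.05 CPM (log2 -1.68 ± 0.064, adjusted p = 5.9e-18). Both groups were again apart, with 0h at 9.21, 9.78 and 10.5 CPM. Gjb2, the gap junction gene for connexin 26, fell from 5.79 ± 0.496 to 1.48 ± 0.2 CPM (mean ± SD, n = 3), a log2 change of -1.97 ± 0.15. Acta1, the skeletal muscle actin gene, fell from 11.8 ± 0.223 to 3.78 ± 0.155 CPM (log2 -1.65 ± 0.094) and lay at 3.73, 3.95 and 3.65 CPM at 24h, under all 3 libraries at 0h (4.71, 4.24 and 5.36 CPM), although 24h was not called against 0h (adjusted p = 0.058). The retinoic acid producing enzyme gene Aldh1a3 (log2 -1.62 ± 0.24), Olfm2 (-1.90 ± 0.15), Fibcd1 (-1.68 ± 0.26), the hemidesmosome anchoring gene Lad1 (-1.67 ± 0.16) and the myosin kinase gene Mylk2 (-1.55 ± 0.23) also fell, each from a 6h mean under 7 CPM. Smoc2 completes the 10 largest decreases among genes of this level and is described with the genes beyond 0h.

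Under the same conditions, the largest increases apart from H2afy2 were in genes of low level. Hacd4, of the very long chain fatty acid elongation cycle, went from 1.91, 1.49 and 1.51 CPM to 4.52, 4.09 and 3.89 CPM (log2 1.34 ± 0.15, adjusted p = 2.5e-08). Glt8d2, a glycosyltransferase gene, went from 5.23, 5.26 and 5.66 to 12.3, 13.7 and 12.3 CPM (log2 1.24 ± 0.081). Both had been lower at 6h than at 0h, where Glt8d2 measured 11.4, 11.8 and 12.0 CPM. Ccn5, a matricellular gene of the CCN family (log2 1.12 ± 0.13), Ppl, which encodes periplakin (1.14 ± 0.20), the endothelial lipase gene Lipg (1.07 ± 0.21) and Lpin1, which encodes the phosphatidate phosphatase lipin-1 (1.02 ± 0.13), rose as well. Hlf, Per2 and Dbp, of the circadian clock and its output, made up the rest of the 10.

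**Figure D2:**
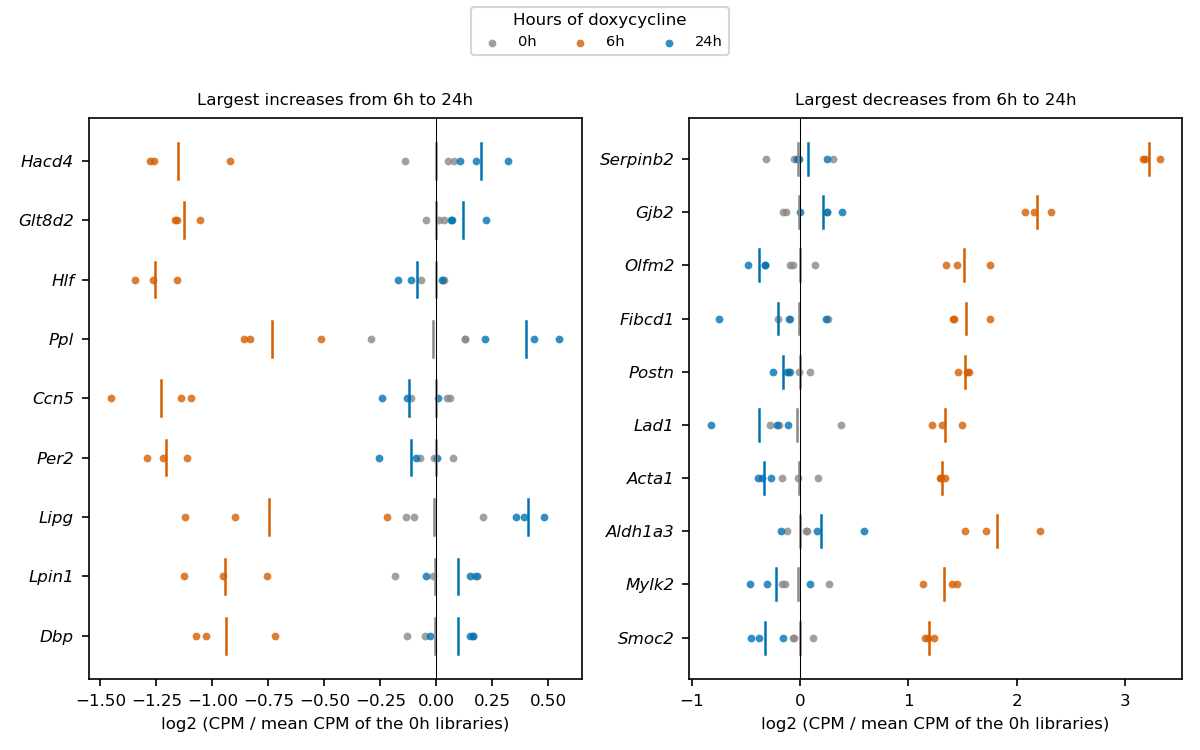
Level of each gene in each library as log2 of its CPM over the mean CPM of the 3 libraries at 0h (horizontal axis), for the 9 largest increases apart from H2afy2 (left) and the 10 largest decreases (right) from 6h to 24h, among protein-coding genes of 1 CPM or more whose 6h and 24h libraries did not overlap. Points are single libraries coloured by hours of doxycycline and short bars are the mean of the 3, and the 6h points of Serpinb2 lie above 3 while its 24h points lie around 0.

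Genes of cholesterol synthesis rose together after 6 hours. Cells make cholesterol from acetyl-CoA through a chain of enzymes whose genes are switched on by SREBP-2 when sterols run low. All 20 tested enzymes were called and all rose (against 17.4% of all tested genes), with a median log2 change of 0.42 against 0.0013 over all genes tested. At 6h against 0h, 19 of the 20 had been called lower, and at 24h against 0h none was called. These lists were chosen with earlier results of these data known.

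Hmgcs1 encodes the synthase that makes HMG-CoA (chr13:119690351-119708260). It stood at 120.1, 116 and 119 CPM at 6h and at 198, 196 and 196 CPM at 24h, a log2 change of 0.73 ± 0.027 (adjusted p = 4.1e-18), with 0h at 204, 194 and 201 CPM. The groups did not overlap, and the 24h libraries lay within the range of 0h. Msmo1 (log2 0.42 ± 0.027) and Cyp51 (0.45 ± 0.029), later enzymes of the same chain, moved less. Insig1, which holds SREBP back when sterols are plentiful, went from 22.5, 22.7 and 24.9 to 41.2, 39.8 and 40.3 CPM (log2 0.80 ± 0.05). Each library at 24h was above each at 6h. Of 14 tested SREBP regulators and sterol transport genes 8 rose and none fell (median 0.14). Srebf2 itself rose by 0.30 ± 0.027 and stayed under its 0h level (231 against 255 CPM, adjusted p = 7.2e-04). Of 12 tested fatty acid synthesis and desaturation genes 7 rose and none fell (median 0.12, with 1 falling without replicate 1 at 24h), with the desaturase genes Scd2 (log2 0.66 ± 0.024, from 781, 765 and 776 to 1240, 1232 and 1204 CPM) and Scd1 (0.34 ± 0.029) among them.

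The promoter of Hmgcs1 is shown because this gene had the smallest p of the list and its promoter was the only 1 of 15 cholesterol synthesis promoters in the RefSeq table (GRCm38.p6) to hold the sterol regulatory element searched for, TCACNCCAC on either strand. The stretch is chr13:119690188-119690247 on the plus strand, and capitals mark the match, which begins 137 bases before the gene's start.
Hmgcs1: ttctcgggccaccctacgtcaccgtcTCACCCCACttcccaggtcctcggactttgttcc
Over windows of 250 bases before to 50 after the start, 1.44% of 27025 genes and 1.39% of 9852 tested genes hold these letters. A match is a description of the sequence, and its absence from the other 14 windows says nothing about SREBP at those genes.

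Clock genes moved in both directions. In the circadian loop, CLOCK and BMAL1 (gene Arntl) drive E-box genes such as the Per and Cry genes, Nr1d2 and the PAR factors Dbp, Tef and Hlf, and the products of Per, Cry and Nr1d2 act back on the loop. Of 18 tested clock and output genes 8 rose and 5 fell, with a median of 0.19. The share called was 72.2%, against 36.1% of all tested genes. Hlf went from 7.46, 6.93 and 6.56 CPM at 6h to 16.9, 15.4 and 14.8 CPM at 24h (log2 1.17 ± 0.075, adjusted p = 7.7e-13), Tef from 47.0, 45.8 and 46.2 to 78.5, 79.0 and 78.5 CPM (log2 0.76 ± 0.032, adjusted p = 5.6e-17), and Nr1d2 from 71.2, 69.1 and 67.8 to 98.1, 102 and 97.4 CPM (log2 0.51 ± 0.032). Per2 rose from 3.41, 3.68 and 3.25 to 7.98, 7.46 and 6.65 CPM (log2 1.09 ± 0.11) and Dbp from 3.17, 2.55 and 2.48 to 5.84, 5.79 and 5.11 CPM (log2 1.02 ± 0.13). Arntl moved the other way, from 49.8, 51.8 and 52.5 CPM at 6h to a mean of 30.4 ± 1.77 CPM (SD, n = 3) at 24h (log2 -0.76 ± 0.043, adjusted p = 6.5e-14). In all 6 genes the groups at 6h and 24h did not overlap, and none was called at 24h against 0h. The count of 5 falling genes came to 3 in 4 of the 9 settings that left out 1 library (replicates 1 and 2 at 6h, and 2 and 3 at 24h).

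Promoter stretches of 3 clock genes are shown because they hold the elements that this loop is known for, an E-box (CACGTG) or a D-box (TTATGNAA, the site of the PAR factors), given in capitals. Per3, chosen after its values were seen, rose by a log2 of 0.89 ± 0.067, from a mean of 13.1 to 24.4 CPM. The stretches lie at chr15:81802519-81802578 on the plus strand for Tef, chr11:69098756-69098815 on the plus strand for Per1 and chr4:151044837-151044896 on the minus strand for Per3, all from RefSeq GRCm38.p6.
Tef: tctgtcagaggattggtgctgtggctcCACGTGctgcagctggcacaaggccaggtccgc
Per1: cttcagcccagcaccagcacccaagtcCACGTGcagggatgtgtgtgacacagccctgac
Per3: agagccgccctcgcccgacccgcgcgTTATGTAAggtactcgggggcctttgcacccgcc
The matches begin 127, 166 and 205 bases before the start. On both strands, 5 of 16 matched clock genes hold the E-box (Per1, Cry1, Tef, Ciart and Bhlhe41) and 2 hold the D-box (Per1 and Per3). Of 9852 tested genes with a promoter window 11.9% hold the E-box and 2.25% the D-box, against 8.09% and 3.99% of all 27025 genes. The E-box carriers did not move alike, since Tef and Bhlhe41 rose while Cry1 fell.

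Genes of protein folding, amino acid supply and ribosome assembly fell after 6 hours. Of 20 tested endoplasmic reticulum chaperone and unfolded protein response genes 18 fell and none rose (18.8% of all tested genes fell), with a median log2 change of -0.25. Hspa5, which encodes the chaperone BiP, went from 1610, 1679 and 1677 CPM to 1070, 1066 and 1114 CPM (log2 -0.61 ± 0.025, adjusted p = 1.7e-17), and 0h stood at 1071, 1078 and 1099 CPM. Of its 24h libraries 2 lay just under the 0h libraries and 1 just above. Hyou1 (log2 -0.42 ± 0.027), Manf (-0.30 ± 0.027) and Hsp90b1 (-0.25 ± 0.024), further folding factors of the same compartment, fell too. Of 37 tested genes of the ATF4 and amino acid response 25 fell and 3 rose (median -0.12), among them the cystine transporter gene Slc7a11 (log2 -0.66 ± 0.058), the stress factor gene Ddit3 (-0.59 ± 0.06) and the tRNA synthetase genes Tars (-0.34 ± 0.025) and Nars (-0.27 ± 0.023).

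Nucleolar genes for ribosome assembly fell in 27 of 30 tested cases, with 1 rising and a median of -0.27. Of all tested genes 18.8% fell and 17.4% rose. Rrp12, a factor of ribosomal subunit export, went from 81.4, 76.5 and 77.5 to 54.5, 56.9 and 55.5 CPM (log2 -0.50 ± 0.034), Ncl, which encodes nucleolin, from 2199, 2175 and 2143 to 1663, 1678 and 1727 CPM (log2 -0.36 ± 0.024), and Utp20 and Heatr1, of the small subunit processome, by -0.40 ± 0.027 and -0.39 ± 0.029. The 3 libraries of each group were apart in all 4 genes. At 24h against 0h, 8 of the 30 were still called higher. Cytosolic and mitochondrial chaperones were mixed, with 8 of 24 falling and 4 rising. In that list the mitochondrial chaperonin gene Hspd1 fell by -0.27 ± 0.026 and the small heat shock gene Hspb8 rose by 0.34 ± 0.037.

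**Figure D3:**
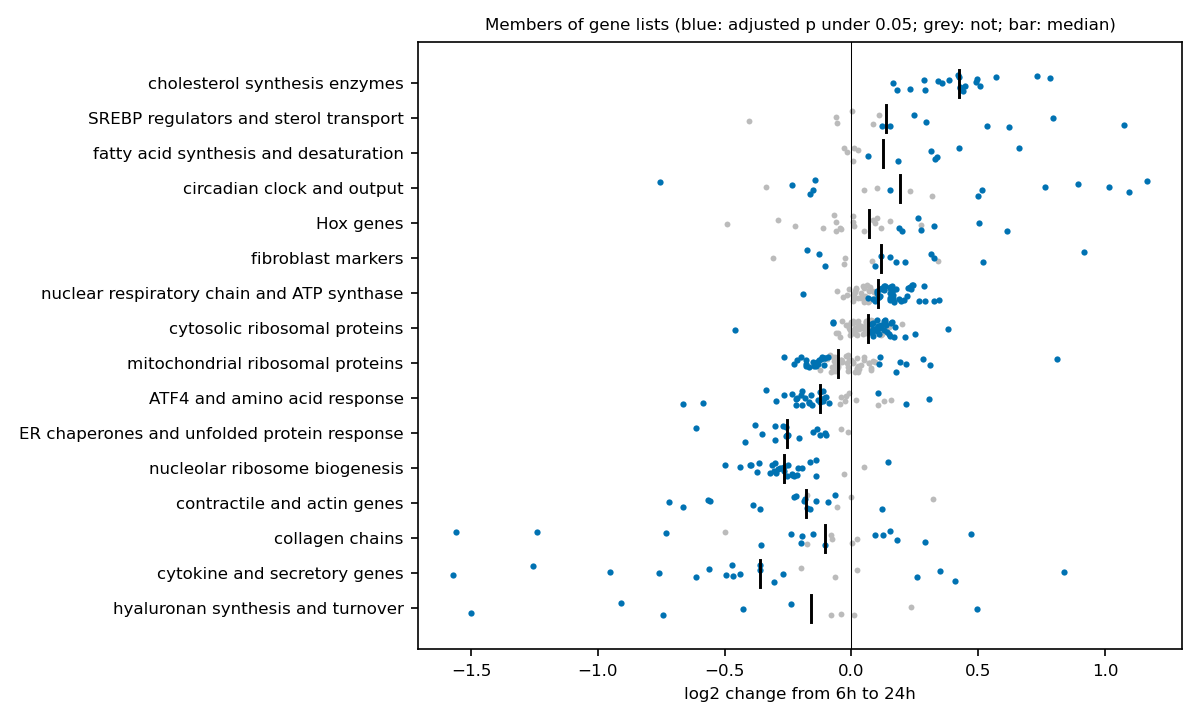
Log2 change from 6h to 24h (horizontal axis) of each tested member of 16 gene lists (rows), in blue where the adjusted p was under 0.05 and grey where it was not, with a black bar at each list's median and vertical scatter for legibility only. All 20 cholesterol synthesis enzymes lie to the right of 0, and 27 of 30 nucleolar genes are blue points to its left.

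In lists of contractile, protease and secreted factor genes more members fell than rose. Of all tested genes 18.8% fell and 17.4% rose. Of 20 tested contractile and actin genes 15 fell and 1 rose (median -0.18). Acta2, the smooth muscle actin that marks contractile fibroblasts, went from 1391, 1397 and 1436 CPM to 935, 958 and 962 CPM (log2 -0.56 ± 0.024, adjusted p = 5.1e-17). Tagln went from 903, 888 and 904 to 532, 539.6 and 564 CPM (log2 -0.72 ± 0.025) and stayed above its 0h libraries (495, 515 and 509 CPM). Both are members of the TGF-beta and YAP list too, in which 14 of 29 tested genes fell and 7 rose. Of 17 matrix proteases and inhibitors 10 fell and 5 rose (median -0.32). The inhibitor gene Timp1 fell from 250.1, 257 and 265 to 146, 146 and 155 CPM (log2 -0.79 ± 0.03), while the protease gene Adamts1 rose from 69.7, 68.8 and 68.0 to 129.9, 126 and 123 CPM (log2 0.87 ± 0.03). Both ended between their 6h and 0h levels, with Adamts1 at 146, 139 and 141 CPM at 0h.

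Hyaluronan, a long sugar polymer of the matrix, is made at the cell surface by the Has enzymes. Has2 (chr15:56665627-56694546) went from 149, 160.1 and 145 CPM to 53.1, 53.1 and 54.2 CPM (log2 -1.50 ± 0.035, adjusted p = 1.0e-22), and 0h stood at 54.1, 56.4 and 53.6 CPM, so the 6h libraries were high and the other 6 lay together. Cd44, the receptor, fell by -0.43 ± 0.025 and Ugdh, which makes the sugar precursor, by -0.24 ± 0.024. Altogether 5 of 10 genes of this list fell and 1 rose. Has3 fell by -0.91 ± 0.23 from 2.17, 1.79 and 1.21 CPM, but its call was lost in at least 1 of the other settings. Of 21 tested cytokine and secreted factor genes 14 fell and 4 rose, with a median of -0.36 and 85.7% called. The rising genes numbered 2 without replicate 2 at 6h or replicate 1 at 24h. The EGF receptor ligand genes Ereg (47.2, 47.1 and 46.8 CPM at 6h, 24.0, 25.1 and 23.8 CPM at 24h, log2 -0.95 ± 0.042) and Hbegf (log2 -0.44 ± 0.027) fell, as did Csf1 (-0.36 ± 0.025) and Vegfa (-0.61 ± 0.032). Of 17 ERK feedback genes, which are switched on by the same receptors' signalling and damp it, 8 fell and 1 rose. The share called was 52.9%, and the rising genes numbered 2 without replicate 1 at 6h or replicate 3 at 24h. Dusp5 went from 94.8, 93.4 and 88.3 to 40.0, 45.2 and 44.0 CPM (log2 -1.10 ± 0.04) and Spry4 fell by -0.64 ± 0.042, while Dusp1 rose by 0.47 ± 0.043.

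Collagen chain genes did not share 1 direction, with 9 of 21 tested genes falling and 6 rising. Of them 71.4% were called, against 36.1% of all tested genes. Col6a3 went from 58.4, 61.6 and 62.9 to 37.9, 37.9 and 34.1 CPM (log2 -0.73 ± 0.044) and Col12a1 from 339, 349 and 346 to 293, 266 and 249 CPM (log2 -0.36 ± 0.035), while Col4a5 rose by 0.29 ± 0.029. Of 17 tested fibroblast markers 9 rose and 3 fell (median 0.12). At 6h against 0h 12 of the 17 had been called lower and 2 higher. At 24h against 0h 5 were called lower and 1 higher (median -0.12). The 3 that fell from 6h to 24h were Thy1 (log2 -0.17 ± 0.026), Prrx1 (-0.13 ± 0.024) and Col1a1 (-0.11 ± 0.030). The growth arrest gene Gas1 went from 25.6, 20.7 and 25.6 to 48.7, 43.0 and 44.0 CPM (log2 0.92 ± 0.065) and ended under its 0h libraries (60.2, 50.9 and 56.5 CPM), Pdgfrb rose by 0.33 ± 0.031, and Prrx2 by 0.52 ± 0.066. Hox genes, which keep the positional identity of skin fibroblasts, rose in 7 of 26 tested cases and fell in none (26.9% called, under the 36.1% of all genes). Hoxc9 rose from 40.3, 38.9 and 42.2 to 51.4, 49.0 and 51.6 CPM (log2 0.33 ± 0.043) and Hoxb9 from 109.6, 111 and 112 to 126, 131 and 125 CPM (log2 0.20 ± 0.028).

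Genes that moved only between 6h and 24h made a class of small changes. The median log2 change was 0.17 among the 132 that rose and -0.15 among the 75 that fell, and 10 of the 207 moved by 1.5-fold or more. In 192 of the 207, all 3 libraries at 24h lay beyond all 6 libraries at 0h and 6h (8.12% of all tested genes). The rule for the class itself asks for 24h to be called against both other times, so this is no separate support. In 16 of the 207 the 0h libraries lay wholly between those at 6h and 24h (3.11% of all tested genes). Not being called at 6h against 0h does not show that a gene was unchanged then, and 188 of the 207 also had an unadjusted p of 0.05 or more at 6h.

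The genes named here are those of 1 CPM or more with the largest changes, protein-coding and with 6h and 24h libraries apart, so larger changes in genes below that level are left out. Ptx3, which encodes the secreted pattern recognition protein pentraxin 3 (chr3:66219887-66225806), was the largest increase among them, with 11.2, 10.3 and 10.0 CPM at 24h against 8.24, 7.18 and 6.93 CPM at 6h and 8.35, 8.45 and 8.78 CPM at 0h. The log2 difference was 0.49 ± 0.083 between 6h and 24h (adjusted p = 2.8e-05) and -0.19 ± 0.085 between 0h and 6h (adjusted p = 0.083). Although 6h was not called against 0h, each library at 6h lay under each at 0h. The glutathione transferase gene Gstm5 stood at 15.4, 17.3 and 17.3 CPM at 24h, above 10.8, 13.6 and 12.3 at 6h and 13.1, 11.7 and 13.5 at 0h (log2 0.45 ± 0.076). Here the 0h and 6h libraries overlapped each other and none reached the 24h libraries. Romo1, which encodes a mitochondrial membrane protein, stood at 31.9, 28.1 and 31.9 CPM against 23.9, 21.8 and 25.9 (log2 0.36 ± 0.059). Nicn1 (log2 0.36 ± 0.056) and Mthfsl (0.39 ± 0.11) rose too.

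Downward, Wfs1, which encodes the endoplasmic reticulum membrane protein wolframin, fell from 19.4, 19.6 and 19.8 CPM at 6h to 15.3, 16.0 and 15.6 CPM at 24h (log2 -0.33 ± 0.059, adjusted p = 5.7e-05), with 18.0, 17.0 and 19.5 CPM at 0h. The zinc finger gene Zfp959 fell from 15.1, 15.9 and 16.0 to 12.0, 12.7 and 13.0 CPM (log2 -0.32 ± 0.064). Its 24h libraries were under all others. Zfp174 (log2 -0.59 ± 0.21, adjusted p = 0.027), Spata5l1 (-0.42 ± 0.13, 0.016) and Zfp970 (-0.38 ± 0.14, 0.034) had the largest decreases among genes of 1 CPM or more, at 6h means between 1.74 and 4.50 CPM, and each lost its call in at least 1 other setting.

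**Figure D4:**
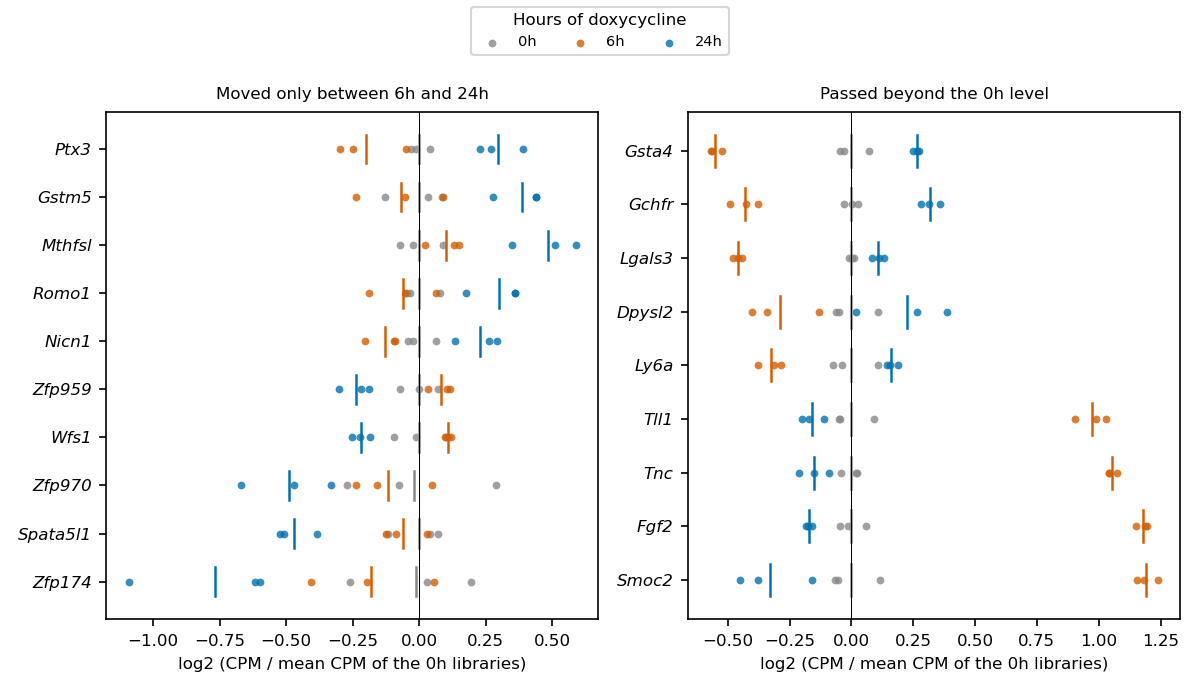
Level in each library as log2 of CPM over the mean CPM of the 3 libraries at 0h (horizontal axis), for 10 genes of 1 CPM or more that moved only between 6h and 24h (left) and 9 that passed beyond their 0h level (right). Points are single libraries coloured by hours of doxycycline and bars are means. On the left the 24h points stand off, and the 6h points of Ptx3 all lie to the left of its 0h points. On the right the 6h and 24h points lie on opposite sides of 0, and 1 library at 24h for Dpysl2 lies among the 0h points.

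The class held genes of the respiratory chain. Oxidative phosphorylation runs through complexes I to V of the inner mitochondrial membrane, most of whose subunits are encoded in the nucleus. Of 75 tested nuclear genes of the chain and ATP synthase 40 rose from 6h to 24h and 1 fell (median 0.10, 54.7% called). Of all tested genes 36.1% were called. The rising genes numbered 30 without replicate 2 at 6h, 31 without replicate 3 at 24h and 36 with DESeq2. Of the 75, 19 moved only after 6h, against 1.5% of all tested genes. That class as a whole held 118 genes without replicate 2 at 0h, and the 19 were not recounted there. Ndufa1 of complex I went from 24.9, 23.7 and 28.6 to 32.7, 31.1 and 33.9 CPM (log2 0.35 ± 0.056), with 0h at 22.6, 24.4 and 24.5. Ndufa2, also of complex I, went from 50.3, 48.1 and 47.2 to 59.4, 57.2 and 60.8 CPM (log2 0.28 ± 0.039), and Uqcrh of complex III from 112, 111 and 110.2 to 127, 128 and 137 CPM (log2 0.24 ± 0.03). In all 3 genes each library at 24h was above each at 6h and 0h. Uqcr10, another complex III gene, was higher at each step, with 59.6, 58.6 and 61.4 CPM at 0h, 64.3, 62.5 and 65.2 at 6h and 75.8, 72.5 and 79.0 at 24h, as were 11 others of the 75 by the calls.

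Of 9 tested genes encoded in the mitochondrion itself 2 rose and 1 fell (33.3% called, near the 36.1% of all genes), and the median of -0.039 turned to 0.011 without replicate 2 at 6h. The fall was mt-Nd5 (log2 -0.21 ± 0.038), and without replicate 1 at 6h the falling genes numbered 5. The rising genes numbered 1 without replicate 1 at 6h and without replicate 1 or 2 at 24h. The rise of mt-Nd6 (log2 0.19 ± 0.045) turned to a fall with counts taken without regard to strand. Mitochondrial ribosomal proteins fell in 20 of 76 tested cases and rose in 8 (median -0.052), so that 36.8% were called, near the 36.1% of all genes. The counts were 13 falling without replicate 1 or without replicate 2 at 24h, and 5, 5 and 4 rising without replicate 1 at 6h, replicate 2 at 6h and replicate 3 at 24h. Mrps31 fell by -0.26 ± 0.042, while Mrpl14 rose by 0.31 ± 0.044 to a level beyond 0h (35.3, 33.3 and 34.2 CPM against 31.6, 31.1 and 30.0 CPM).

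Some cytosolic ribosomal protein genes went further in the direction they had taken by 6h. Of 79 tested 32 rose and 3 fell (median 0.064), with 44.3% called against 36.1% of all tested genes. Of the 79, 24 went further and 7 moved only after 6h, and the class that went further holds 0.479% of all tested genes. Rps29 stood at 176, 182 and 207 CPM at 0h, 243, 229 and 261 at 6h and 325, 300.2 and 328 at 24h, a log2 change of 0.38 ± 0.044 over the last step (adjusted p = 6.9e-08). Rpl36a went from 184, 174 and 186 to 206, 205 and 219 CPM (log2 0.21 ± 0.032), Rpl26 from 312, 309 and 312 to 342, 346 and 350.0 CPM (log2 0.15 ± 0.026), and Rps20, which moved only after 6h, from 387, 369.7 and 395 to 452, 437 and 481 CPM (log2 0.25 ± 0.035). The 3 libraries of each group were apart in these 4 genes. Without replicate 2 at 6h the number that rose was 19, and the 3 that fell numbered 0 or 1 without replicate 1 or 3 at 6h or replicate 1 or 2 at 24h. Many of these genes have near-identical copies in the genome, so counting of uniquely placed reads can miss part of their RNA. Only 1 gene of the class went further downward, the collagen gene Col1a1, named because it was alone. Its call was lost with DESeq2 and without replicate 3 at 6h or at 24h (log2 -0.11 with all libraries, adjusted p = 0.0060, and -0.15 to -0.067 over the other settings). It averaged 3199 ± 73.9 CPM at 0h, 3024 ± 76.9 at 6h and 2810 ± 160.1 at 24h (SD, n = 3).

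The rising late genes were short. Median gene length from start to end was 2.97 kb among genes that went further upward and 6.28 kb among those that rose only after 6h, against 31.4 kb among those that fell only after 6h, 24.2 kb among all called genes and 18.6 kb among genes not called. Reads that lay in no annotated gene were 5.68 to 6.23% of the reads at 6h, 6.35 to 7.00% at 24h and 5.97 to 6.05% at 0h, so the 24h libraries stood above the others in this share too. Its part in the rise of ribosomal and respiratory genes was not tested.

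Genes that passed beyond their 0h level had a median log2 change from 6h to 24h of 0.33 among the 26 that rose and -0.38 among the 56 that fell. The rule for the class asks for called steps on both sides of 0h, so changes larger than in genes that moved only after 6h are built into it. In 75 of the 82 the libraries at 0h lay wholly between those at 6h and 24h (3.11% of all tested genes). The rule for the class itself asks for 0h between 6h and 24h, so this order is no separate support. In the class the median difference between 24h and 0h was 0.13 upward and -0.14 downward.

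Tnc, which encodes the matrix protein tenascin-C (chr4:63959785-64047015), went from 1477, 1514 and 1477 CPM at 6h to 675, 647 and 621 CPM at 24h, with 698, 728 and 729.5 CPM at 0h. Tenascin-C RNA thus fell by a log2 change of -1.20 ± 0.027 from 6h (adjusted p = 9.2e-23) and differed by -0.15 ± 0.027 from 0h (adjusted p = 4.9e-04). All 3 libraries at 24h were under all 3 at 0h. Fgf2, the gene of basic fibroblast growth factor (chr3:37348477-37410106), went from 89.4, 92.0 and 91.7 to 36.1, 35.6 and 35.4 CPM (log2 -1.35 ± 0.035, adjusted p = 1.0e-21), under its 0h libraries of 41.9, 39.8 and 38.9 CPM (log2 -0.17 ± 0.039 against 0h). Smoc2, which encodes a secreted calcium-binding matrix protein, went from 48.0, 49.0 and 50.9 to 16.6, 15.8 and 19.4 CPM (log2 -1.51 ± 0.057), with 20.8, 23.4 and 20.6 at 0h, and the protease gene Tll1 from 96.1, 98.8 and 90.8 to 43.0, 42.1 and 44.9 CPM (log2 -1.14 ± 0.04). In each of these genes the order of the groups was 6h, 0h, 24h from high to low, without overlap. Ltbp2 (log2 -0.90 ± 0.035), which encodes a latent TGF-beta binding protein of the matrix, the crosslinking enzyme gene Lox (-0.37 ± 0.023), Fbln2 (-0.30 ± 0.023), Col12a1 and Col8a1 (-0.24 ± 0.026) belong to the same class, as does the cell cycle inhibitor gene Cdkn1a (-0.22 ± 0.031).

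Upward, Gsta4, a glutathione transferase gene that acts on lipid peroxidation products (chr9:78191966-78209349), went from 45.1, 45.4 and 46.6 CPM to 80.4, 79.6 and 81.0 CPM, past its 0h libraries of 65.6, 64.9 and 70.3 CPM. The log2 change was 0.82 ± 0.035 (adjusted p = 7.8e-17) and the step past 0h was 0.26 ± 0.033 (adjusted p = 3.5e-06). Lgals3, which encodes the lectin galectin-3, went from 166, 169.5 and 168 to 244, 249 and 253 CPM with 230.5, 229 and 232 at 0h (log2 0.57 ± 0.025), and Gchfr, which encodes a regulator of tetrahydrobiopterin synthesis, from 6.87, 6.57 and 7.10 to 11.2, 11.5 and 11.8 CPM with 9.24, 9.39 and 9.05 at 0h (log2 0.75 ± 0.076). These 3 were ordered without overlap. Ly6a, the gene of the surface antigen Sca-1, went from 28.6, 27.4 and 29.2 to 39.6, 40.5 and 39.3 CPM with 34.7, 33.8 and 38.3 at 0h (log2 0.49 ± 0.047). Dpysl2 was the widest, at 54.3, 56.6 and 65.5 CPM at 6h and 72.6, 86.1 and 93.6 at 24h (log2 0.52 ± 0.065), and its 0h libraries of 77.2, 69.2 and 68.6 overlapped those at 24h.

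Coverage by macroH2A2-GFP was set beside these RNA changes. The ChIP libraries were 1 per time, so no test was made, and coverage is the percent of a gene's body (without 1 kb at each end, protein-coding genes of 3 kb or more) inside the authors' called regions. Over 11128 tested genes the mean coverage was 2.59% at 0h, 20.5% at 6h and 6.15% at 24h. Among genes of 10 CPM or more at 0h, mean coverage went from 22.3% at 6h to 4.39% at 24h in the 1827 that rose, from 19.6% to 1.89% in the 2173 that fell, and from 19.4% to 1.57% in the 4405 that were not called. Coverage was thus lower at 24h over genes of this level whichever way their RNA went. Among genes under 1 CPM it was higher at 24h than at 6h in all 3 sets, at 34.4, 37.5 and 27.8% at 24h. These shares depend on how many regions were called in each library, which was 28980 over 201.1 Mb at 0h, 62192 over 383 Mb at 6h and 44827 over 363 Mb at 24h.

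**Figure D5:**
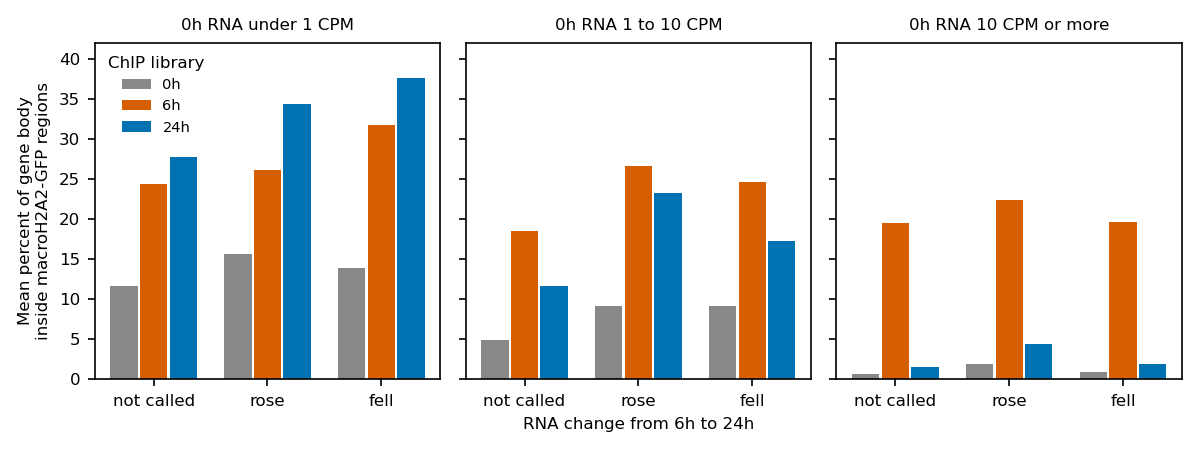
Mean percent of gene bodies inside called macroH2A2-GFP regions (vertical axis) at 0h, 6h and 24h, for genes whose RNA was not called, rose or fell from 6h to 24h (horizontal axis), in 3 panels by mean RNA level at 0h. Each bar rests on 1 ChIP library. In the panel of 10 CPM or more, the 6h bars stand near 20% and the 24h bars under 5% in all 3 sets, whereas in the panel under 1 CPM the 24h bars are the tallest.

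By class, the 20 genes beyond 0h upward had a mean coverage of 47.3% at 6h and 15.0% at 24h, and the 54 beyond 0h downward 21.9% and 6.89%. The 99 that rose only after 6h had 19.5% and 1.94%, and the 69 that fell only after 6h 20.4% and 1.41%. Single genes differed widely. Smoc2 was covered at all times (95.5% at 0h, 90.3% at 6h and 99.0% at 24h), and Ptx3 at 6h and 24h (76.5 and 81.8%). Fgf2 went from 20.5% at 6h to 0% at 24h, Tnc from 23.2 to 0%, and Has2 from 92.0 to 32.6%. Hmgcs1, Wfs1 and Dpysl2 were at 0% in all 3 libraries. Serpinb2 was covered to 34.0, 50.7 and 47.2% while its RNA rose and fell.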

How the data were processed

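Per the submitters' processing notes, RNA reads were aligned with STAR 2.5.2b to GRCm38.p4 and ChIP reads with Bowtie 1.1.2, and regions were called with SICER 1.1. For each gene the authors deposited raw RNA counts, without normalisation. The deposited ChIP lists hold 2 further columns that the labels do not define, whole numbers per region treated as a score and a running number (unit: other). Neither was used. RNA libraries were poly(A)-selected, directional and single-end, per the labels.

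Of the 2 strands' columns, the one with at least 96.6% of the counts in each library was read, and 21.2 to 23.1% of reads fell in no gene or could not be placed. In R 4.3.3, edgeR 4.0.16 (quasi-likelihood test after TMM scaling and filterByExpr) took the 9 libraries in 1 model with time as its term, and 13785 of 48440 gene IDs passed the filter. Log2 changes carry standard errors, and p-values were adjusted by Benjamini-Hochberg over all genes tested. In a test on simulated data for 24h against 6h (13641 genes), 74% of 50 genes changed 1.25-fold and 96% of 50 changed 1.5-fold were recovered. Replicate numbers did not pair the libraries (correlation of deviations from -0.013 to 0.053).

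Named genes were the 10 largest changes each way, the 5 largest each way among genes beyond 0h or moved only after 6h (protein-coding, 1 CPM or more, groups not overlapping), up to 4 members by smallest p from lists with 3 or more called, the H2A variants and called markers of other cell types. A few of these genes are not reported here. The members and lists were chosen with earlier results of these data known. Tables and figures used Python 3.11.15. Alternatives were another scaling, DESeq2 1.42.0, other filters, unstranded counts, the replicate block, only the 6 libraries, and leaving out each library. The other ChIP libraries were not used here.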

Additional observations from a re-analysis of the deposited data

How the results depend on the processing

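The count of 4980 genes called from 6h to 24h came to 4123 to 5047 when each library was left out in turn, 4208 with DESeq2 and 420 with a fold of 1.5 or more. The 207 genes that moved only after 6h came to 118 to 252 without single libraries and 158 with DESeq2, and the 82 beyond 0h to 33 to 95 and 57. With the replicate number as a block, the 3 counts were 5036, 216 and 86, and same-numbered libraries did not deviate together. Of 165 called genes chosen for naming, Col1a1 and Per3 among them, 155 kept their call in all 16 settings and 10 lost it in 1 or more (Col1a1, Epcam, Gbp2, Gbp2b, Has3, Spata5l1, Zfp174, Zfp970, mt-Nd6 and mt-Rnr2). The direction of mt-Nd6 reversed with unstranded counts (log2 -0.15, adjusted p = 0.019). The cause was not tested. Depth limits genes of a few CPM most, which carried the widest errors.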

Other observations

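Lists outside the groups described above moved in both directions. Of all tested genes 36.1% were called, 17.4% higher and 18.8% lower at 24h. Of 24 immediate early and AP-1 genes 12 fell and 7 rose from 6h to 24h (79.2% called). Without replicate 1 at 6h or replicate 3 at 24h, 9 fell and 5 rose. Fosl1, an AP-1 subunit that follows growth factor signalling, went from 144, 142 and 133 to 85.7, 86.7 and 86.8 CPM (log2 -0.69 ± 0.03), Egr3 fell by -0.91 ± 0.12, and Fosl2 rose by 0.26 ± 0.028. Of 29 glycolysis and hypoxia genes 10 rose and 8 fell (62.1% called). The glycolytic regulator gene Pfkfb3 went from 25.4, 24.2 and 24.2 to 15.5, 13.8 and 16.6 CPM (log2 -0.68 ± 0.061), while Ndrg1 rose by 0.37 ± 0.034. Of 23 p53 targets 9 fell and 3 rose (52.2% called), with the ribonucleotide reductase gene Rrm2b at -0.43 ± 0.054 and Plk2 at 0.55 ± 0.025. Other matrix and matricellular genes fell in 12 of 25 cases and rose in 9 (84.0% called). Among them Spp1, the gene of osteopontin, was at 884, 964 and 974 CPM at 6h and 572, 580.5 and 602 CPM at 24h (log2 -0.69 ± 0.029). Collagen processing enzymes fell in 9 of 21 cases and rose in 5 (66.7% called). Plod3 was at -0.27 ± 0.029 and Pcolce at 0.23 ± 0.025. Without replicate 3 at 6h, 6 of these enzymes fell and 4 rose.

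In the next lists the share called was near the 36.1% of all tested genes, or under it. Of 30 G1/S genes 7 rose and 3 fell (median 0.014, 33.3% called), and of 33 G2/M genes 8 rose and 6 fell (median 0.0095, 42.4% called). Without replicate 2 at 6h the rising genes numbered 3 and 5, and without replicate 3 at 24h the rising G1/S genes 4. The falling G2/M genes numbered 3 without replicate 3 at 6h or without replicate 2 at 24h. Ccnb2 rose by 0.35 ± 0.032 and Rrm2 fell by -0.19 ± 0.025. Of 31 Polycomb group genes 8 rose and 5 fell (41.9% called), with Phf1 at 0.45 ± 0.056, Cbx6 at 0.20 ± 0.028, Rbbp4 at 0.13 ± 0.027 and Pcgf3 at -0.15 ± 0.026. The 5 falling genes numbered 2 or 3 without replicate 1 or 3 at 6h or without replicate 1 or 2 at 24h. Of 27 histone chaperones and remodellers 9 fell and 2 rose (40.7% called), with Ruvbl1 at -0.23 ± 0.048 and Smarca5 at -0.18 ± 0.028. The rising genes numbered 1 without any 1 of the 6h replicates or without replicate 2 at 0h. Retinoic acid and hedgehog genes rose in 6 of 18 cases and fell in 1 (38.9% called). Rarg was at 0.20 ± 0.031 and Smo at 0.17 ± 0.028. The rising genes of this list numbered 4 with DESeq2 and without replicate 1 or 2 at 6h or replicate 1 at 24h. Of 19 interferon response genes 4 rose and 1 fell (26.3% called). Ifit2 rose by 0.15 ± 0.038 from 64.8 CPM, whereas Gbp2, Gbp2b and Ifit1 had 6h means under 1 CPM. The rising genes numbered 2 without replicate 2 at 6h or at 24h.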
